A study of Mus musculus with 2 samples.

Results

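The collagen gene family was described in whole lungs of mouse embryos at E15.5 (embryonic age in days) by taking every probe set that the platform annotation assigns to exactly 1 gene with a symbol made of Col, a number, a, and a number. The rule found 82 probe sets for 42 genes, out of 34945 probe sets for 18193 genes that name 1 gene. The rule itself uses the gene symbol and no signal. The data are 2 arrays, 1 of wild type whole lung and 1 of TAZ-deficient whole lung, the animals being littermates. TAZ, encoded by Wwtr1, is a coactivator of the TEAD transcription factors that the Hippo kinase cascade restrains. For each group 4 total RNA samples were mixed into 1 pool, which lowers the spread between embryos without removing it. What remains of that spread cannot be estimated from 1 pool per group. How the TAZ deficiency was made, the strain and the sex of the embryos were not stated in the labels.

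Collagens are made of chains whose repeating glycine triplets wind into a triple helix, and the families differ in what the helices build. Fibrillar collagens form the cables of the stroma, type IV chains form the sheet-like network of basement membranes, FACIT collagens (fibril-associated collagens with interrupted triple helices) sit on the surface of fibrils, and network collagens form lattices. The remaining types include the beaded filaments of type VI, the anchoring fibrils of type VII, the basement membrane zone collagens XV and XVIII and the collagens that span the cell membrane. In the embryonic lung the epithelium branches against a basement membrane, and mesenchymal cells lay down fibrillar collagen around airways and vessels.

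Values are deposited array signals on a linear scale. Signals below a floor of 15.2, the median of all non-control values, were set to that floor, a gene was called measured when either array exceeded it, and the brightest probe set by mean log2 signal stood for the gene. A fold with 1 signal at or below the floor is a lower bound, written "at least". With 1 array per group no difference has a replicate check, no test is possible, and differences were counted by size at 1.5-fold and 1.2-fold. Precision is limited by the number of arrays. The brightest probe set of Wwtr1 read 791.2 on the wild type array and 11.3 on the TAZ-deficient array, which checks the labels of the arrays. The lung markers Sftpc (4142.5 and 4121.5) and Tbx4 (970 and 993.5) were well above the floor on both arrays. In whole tissue, fewer cells of a type and less RNA per cell cannot be told apart.

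At the floor used here, the brightest probe sets of the measured collagen genes stayed within 1.5-fold of wild type in TAZ-deficient lung. Dimmer probe sets of Col27a1 (37 and 67.5, 1.82-fold) and Col25a1 (8.6 and 29.3, at least 1.93-fold) were higher. Of the 42 genes, 32 were measured, and none of these was 1.5-fold different in either direction, against 1.28% of all 12032 measured genes that were 1.5-fold higher and 1.47% that were 1.5-fold lower. At 1.2-fold, 5 collagens were higher (Col7a1, Col11a1, Col15a1, Col2a1 and Col12a1), beside 8.03% of all measured genes, and 4 were lower (Col26a1, Col9a2, Col27a1 and Col4a3), beside 10.6%. Both collagen shares past 1.2-fold were larger than those of all measured genes. With signals floored, the remaining 23 of the 32 (71.9%) were within 1.2-fold, a smaller share than the 81.4% of all measured genes. The 23 include Col24a1, whose 1.17-fold is a lower bound and may exceed 1.2-fold. Such bounds also occur among all measured genes, 641 of which had 1 signal at or below the floor. Beside shares of 1.28% and 1.47%, a count of 0 among 32 genes does not set the collagens apart at 1.5-fold. With the floor lowered to the 25th percentile (4.3 signal units), 5 of 41 collagens were 1.5-fold lower, namely Col9a2, Col17a1, Col4a3, Col6a4 and Col24a1, beside 7.14% of the 16115 genes measured there, and no wild type signal of the 5 exceeded 19.4. Small ratios above 0 were frequent. Of the 32 collagens 23 (71.9%) had a ratio above 0, beside 46.8% of all measured genes, and the median log2 ratio (TAZ-deficient to wild type) of the family was 0.08 (1.05-fold), beside -0.01 for all measured genes.

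**Figure D1:**
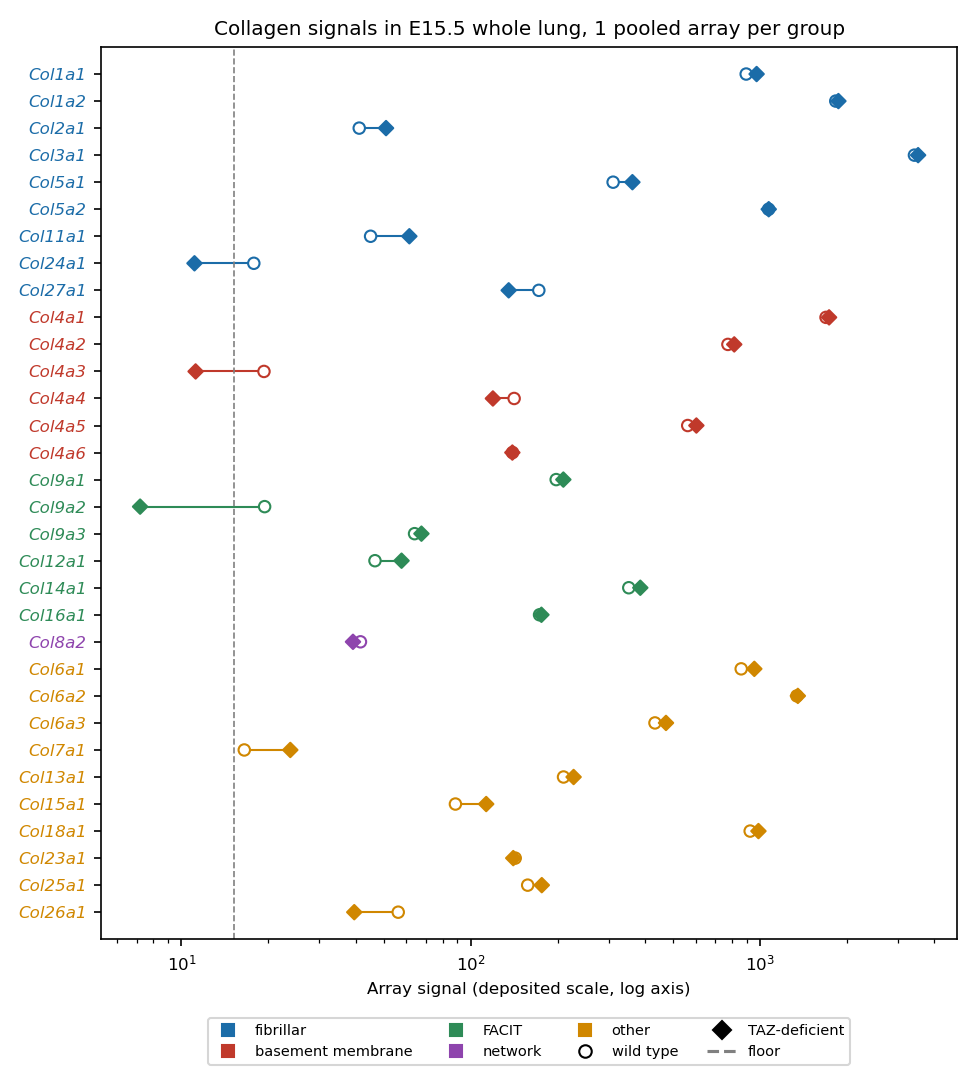
Array signal (log axis) of the 32 measured collagen genes in the wild type pool (open circles) and the TAZ-deficient pool (diamonds), 1 array each with no error bars, coloured by structural group, with the floor of 15.2 as a dashed line. Most pairs of symbols overlap or nearly touch, and the wide gaps belong to dim genes such as Col9a2 (19.4 and 7.2).

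The signs of the small ratios depended on how the arrays were scaled. Under quantile normalization 59.4% of the collagens were above 0 and under loess 62.5%, beside 48% and 48.4% of all genes measured there. The family median was 0.06 in both. Signal level mattered for the comparison as well. Of the 1269 genes of any kind above 667.67 signal units (the 95th percentile) on both arrays, 66% had a ratio above 0 and the median log2 ratio was 0.03, and all 9 collagens in that range were above 0 with a median of 0.04. Under quantile normalization and under loess 4 of these 9 were above 0 and 5 below, beside 45.4% and 47.8% above 0 of the 1269 genes. Of the 6732 genes above 106.3 (the 75th percentile) on both arrays, 49.2% were above 0, and 17 of the 21 collagens in that range were.

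**Figure D2:**
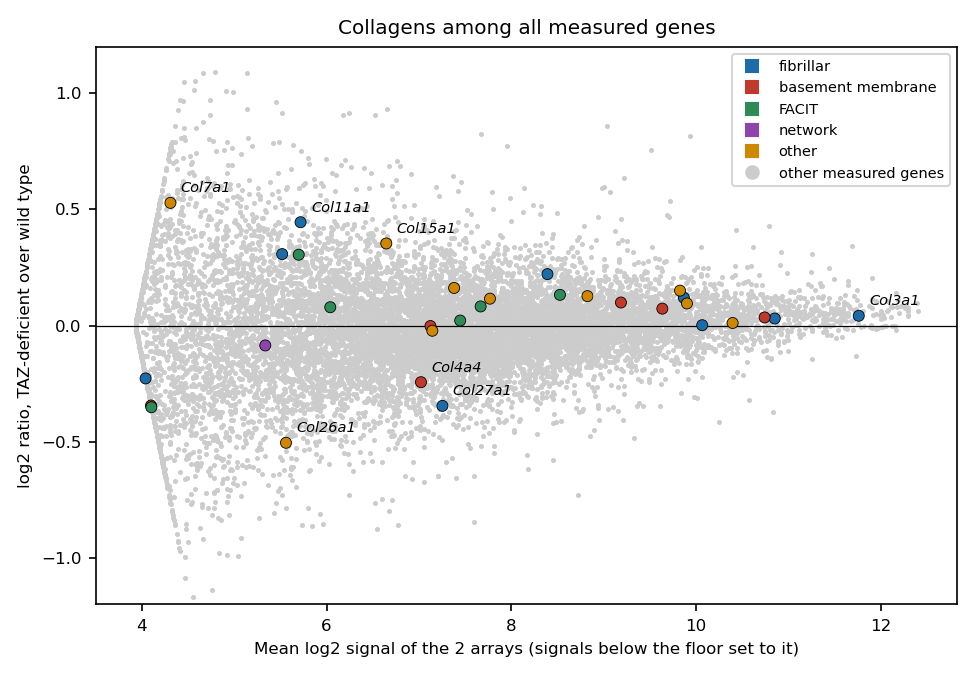
Log2 ratio, TAZ-deficient to wild type, against the mean log2 signal of the 2 arrays for all measured genes (grey) and the 32 measured collagens (coloured by group), with 12 genes of larger ratio outside the plotted range. The collagens lie within the cloud of other genes at every signal level.

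Among the fibrillar collagens, which carry the tensile strength of the stroma, 9 of 11 genes were measured, with 7 ratios above 0 and 2 below. The share above 0 over all measured genes, 46.8%, stands beside this sign count and those of the groups and lists that follow. The median log2 ratio was 0.04, but it was -0.01 under quantile normalization and under loess. Col1a1 and Col1a2 encode the chains of type I collagen. Col1a1 read 896.8 in the wild type pool and 974.4 in the TAZ-deficient pool (1.09-fold higher), and its second probe set read 160.5 and 168.5. Col1a2 read 1829.7 and 1868.5 (1.02-fold higher, but with the opposite sign under loess and quantile normalization), and its second probe set read 1157.1 and 1198.6. Thus both chains of type I collagen were within 1.1-fold at all 4 measured probe sets. Col3a1, the type III chain of elastic tissues, read 3422.8 and 3524 (1.03-fold higher, but with the opposite sign under loess and quantile normalization), while its second probe set was lower (851.5 and 825).

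The promoters of Col1a2 and Col3a1 show how these fibrillar genes differ in their start regions, and that of Col3a1 holds the letters of the TEAD core, the site that TAZ reaches through its partners. Both are 250 bases before the start in RefSeq GRCm38.p6, plus strand, chr1:45311288-45311537 for Col3a1 with GGAATG or its reverse complement CATTCC in capitals, and chr6:4505368-4505617 for Col1a2 with the CCAAT box (CCAAT) and the GC box (GGGCGG) in capitals.
Col3a1: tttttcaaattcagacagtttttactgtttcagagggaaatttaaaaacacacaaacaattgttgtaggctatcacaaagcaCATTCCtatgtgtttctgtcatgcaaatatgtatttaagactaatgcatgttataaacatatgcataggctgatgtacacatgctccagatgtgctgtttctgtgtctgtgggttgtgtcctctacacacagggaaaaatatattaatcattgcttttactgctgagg
Col1a2: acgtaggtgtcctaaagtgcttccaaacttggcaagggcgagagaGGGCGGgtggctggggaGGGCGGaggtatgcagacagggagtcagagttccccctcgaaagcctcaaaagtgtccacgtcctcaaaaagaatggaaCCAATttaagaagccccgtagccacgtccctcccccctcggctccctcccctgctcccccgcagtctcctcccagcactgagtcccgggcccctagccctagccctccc
In Col3a1 the TEAD letters begin 168 bases before the start, on the strand opposite to the gene, and the printed part of Col1a2 holds none.

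Col5a1 and Col5a2 encode type V collagen, which sits inside type I fibrils and limits their width. Col5a1 read 310.9 and 362.5 (1.17-fold higher), and its other probe sets read 204.5 and 205.9, and 73 and 81.8. Col5a2, the next protein-coding gene after Col3a1 on chromosome 1, read 1072 and 1073.1 at its brightest probe set (a sign that turned under loess and quantile normalization) and 817.6 and 985.8 at the other. The probe sets of Col5a2 therefore disagreed by more than the size of either type I ratio. Col5a3 (11.5 and 11.4) was not measured.

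The type II and type XI chains build cartilage fibrils. Col2a1 read 41.2 and 51 (1.24-fold higher) at its single probe set. Col11a1 read 45.1 and 61.4 (1.36-fold higher), but its second probe set read 49 and 51.2. Col11a2 (12.4 and 11.8) was not measured. The type XXIV and XXVII chains are fibrillar collagens of developing skeleton and other tissues. Col24a1 was near the floor (17.8 and 11.1, at least 1.17-fold lower). Col27a1 was 1.27-fold lower at its brightest probe set (172.1 and 135.4) but 1.82-fold higher at its other one (37 and 67.5), so its probe sets gave no common direction.

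**Figure D3:**
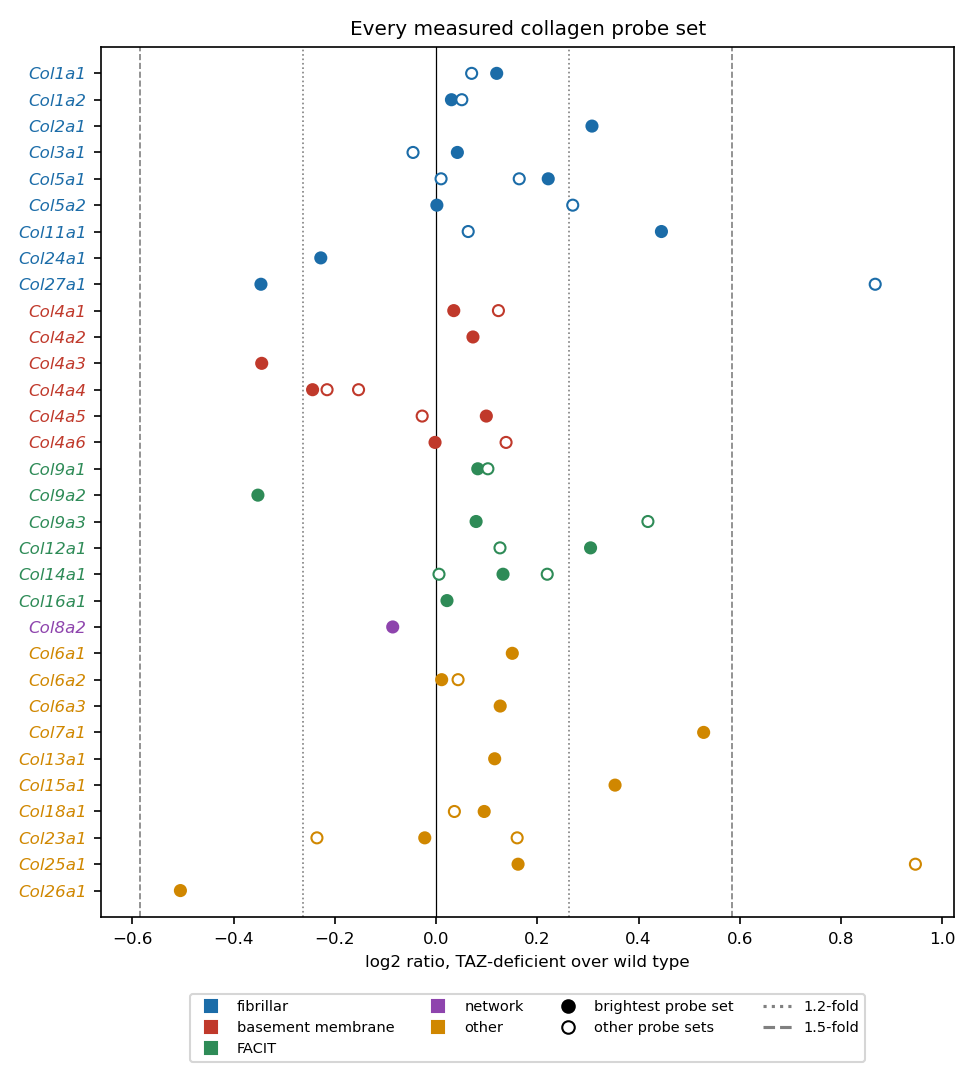
Log2 ratio, TAZ-deficient to wild type, for each of the 55 measured collagen probe sets, by gene, with the probe set that stands for the gene filled and the others open, and dotted and dashed lines at 1.2-fold and 1.5-fold. Col4a4 has all 3 probe sets below 0, and the probe sets of Col27a1 lie far apart on opposite sides.

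Among the type IV chains of basement membranes, ratios were near or above 0 for Col4a1, Col4a2, Col4a5 and Col4a6 and below 0 for Col4a3 and Col4a4. Of the latter, Col4a3 lay near the floor and Col4a4 was within 1.2-fold. All 6 genes were measured, 3 were above 0 and 3 below, and the median log2 ratio was 0.02 with a mean of -0.06. Col4a1 and Col4a2 together form the ubiquitous heterotrimer. Col4a1 read 1693.1 and 1734.6 (1.02-fold higher, but with the opposite sign under loess and quantile normalization), and its second probe set read 841.9 and 916.9. Col4a2 read 775.3 and 815.4 (1.05-fold higher). The pair is transcribed in opposite directions from neighbouring starts, and the ratios of both genes were within 1.1-fold. The 22 bases from one annotated start to the other (chr8:11312805-11312826, RefSeq GRCm38.p6, plus strand) are shown with the GC box in capitals, because they lie in the start region of both genes.
Col4a1 and Col4a2: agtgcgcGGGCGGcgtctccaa

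Col4a3 and Col4a4 encode chains of the heterotrimer with Col4a5 that is found in the kidney filter and in alveolar basement membrane, where alveolar type 1 cells express them. Col4a4 read 141.4 in the wild type pool and 119.4 in the TAZ-deficient pool (1.18-fold lower), and its other probe sets read 126.2 and 108.7, and 54.6 and 49.1. All 3 probe sets of Col4a4 were thus lower in the TAZ-deficient pool, with log2 ratios of -0.24, -0.22 and -0.15. Col4a3, its neighbour on chromosome 1, read 19.3 and 11.2 (at least 1.27-fold lower), and its other probe set stayed under the floor (14.1 and 15.1). Col4a5, the chain shared by both rarer heterotrimers, read 563.1 and 603.2 (1.07-fold higher) at the brightest probe set and 201.4 and 197.6 at the other. Col4a6, its head-to-head neighbour on the X chromosome, read 139.6 and 139.4, and 73.6 and 81 at the second probe set, the first being just above wild type under all 3 other scalings. The starts of Col4a5 and Col4a6 are 1343 bases apart in RefSeq GRCm38.p6, and those of Col4a1 and Col4a2 are 21 bases apart.

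FACIT collagens, which link fibrils to other matrix, had 6 of 9 genes measured and a median log2 ratio of 0.08. Of the 6, 5 had ratios above 0, beside 46.8% of all measured genes. Col12a1 and Col14a1 coat type I fibrils in stretched tissue. Col12a1 read 46.7 and 57.7 (1.24-fold higher), and 33.9 and 37 at its second measured probe set. Col14a1 read 352.2 and 386 (1.10-fold higher), and 126 and 126.5, and 49.3 and 57.4 at the others. On the deposited scale neither gene had a measured probe set below wild type. Col16a1 read 173.1 and 175.7. The chains of type IX collagen, which decorates cartilage fibrils, did not share a direction. Col9a1 read 197.6 and 209.2 (1.06-fold higher), and 76.2 and 81.8 at its second probe set. Col9a3 read 64 and 67.6 (1.06-fold higher), and 43.4 and 58 at its second measured probe set. Col9a2 was near the floor (19.4 and 7.2, at least 1.28-fold lower). Col19a1, Col20a1 and Col22a1 were not measured, with no signal above 13.7 at any probe set.

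The cartilage collagens can be set beside other cartilage genes. Of 12 cartilage markers 8 were measured, 4 above 0 and 4 below, with a median log2 ratio of 0.06 and a mean of -0.06. Matn3, a cartilage matrix protein, read 33.5 and 18.3, and Sox6, a chondrocyte transcription factor, read 59.1 and 80. Cnmd, the cartilage protein chondromodulin, read 61.3 and 46.4, and the matrilin Matn4 read 219 and 176.6. Besides Sox6, the markers above 0 were Sox5 (29.2 and 35.9, 1.23-fold), Hapln1 (159.8 and 190.5, 1.19-fold) and Sox9 (132.2 and 155.7, 1.18-fold). Other probe sets of Sox6 read 61.6 and 62.9, 53.8 and 67.9, and 22.1 and 23.4, and that of Sox9 read 128 and 132.3. Those of Sox5 went both ways (25.3 and 23.9, and 24.1 and 30.8). The defining markers Acan, Matn1, Comp and Snorc were at or below the floor on both arrays, and the summed signal of the 12 markers was 739.3 on the wild type array and 756.2 on the other. The part of cartilage content in the ratios of Col2a1, Col9a1, Col9a3 and Col11a1 was not tested.

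Of the network collagens only Col8a2, a chain of the short-chain lattice of vessels and cornea, was measured. It read 41.6 and 39.2 (1.06-fold lower). The other chain of that lattice, Col8a1, read 12.3 and 10.5, with no signal above 12.3 at its 3 probe sets, and Col10a1, the collagen of hypertrophic cartilage, read 1 and 2.2.

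Type VI collagen forms beaded filaments around cells, and its 3 measured chains had ratios above 0. Col6a1 read 861.9 and 956.7 (1.11-fold higher), Col6a3 read 433.8 and 473.6 (1.09-fold higher), and both were above wild type under every scaling tried. Col6a2 read 1342.6 and 1352.9, and 759.4 and 782.6 at its second probe set, the first with the opposite sign under loess and quantile normalization. The 3 chains assemble into 1 monomer, and none was more than 1.11-fold different. The alternative chains Col6a4 (8.3 and 5.1) and Col6a5 (5.6 and 5.1) were not measured.

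Col15a1 and Col18a1 encode the collagens of the basement membrane zone whose ends can be released as endostatin-like fragments. Col15a1 read 88.6 and 113.2 (1.28-fold higher) at its single probe set. Col18a1 read 925.7 and 988.7 (1.07-fold higher), and 721.6 and 739.9 at its second probe set. The 250 bases before the inner of the 2 annotated Col18a1 starts (chr10:77113706-77113955, RefSeq GRCm38.p6, minus strand, written in the direction of the gene) are shown with the TEAD core letters in capitals, because they hold them on both strands.
Col18a1: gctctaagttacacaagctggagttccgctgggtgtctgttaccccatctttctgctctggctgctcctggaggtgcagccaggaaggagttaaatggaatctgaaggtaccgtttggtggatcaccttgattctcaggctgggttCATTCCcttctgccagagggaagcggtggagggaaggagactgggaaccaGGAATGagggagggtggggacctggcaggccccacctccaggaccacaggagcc
The matches begin 104 and 54 bases before that start.

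Col7a1, which forms the anchoring fibrils under stratified epithelium, had the highest ratio of the 32 genes (1.44-fold higher), but its signals of 16.5 and 23.8 lie just above the floor. Markers of basal and stratified epithelium were dim on both arrays. Krt5, Krt14 and Trp63 were below the floor, and Krt6a read 17.2 and 7.2. Col26a1, an extracellular collagen with short helices, read 56.2 and 39.6 (1.42-fold lower), the lowest ratio with signals floored at 15.2, and its other probe set was below the floor. The folds of Col9a2, Col4a3 and Col24a1 are lower bounds at that floor and exceed 1.42-fold with the floor at the 25th percentile (2.69-fold, 1.72-fold and 1.60-fold lower). Neither gene thus has a second probe set above the floor beside its ratio.

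The membrane-spanning collagens carry a short intracellular end and a shed ectodomain. Col13a1, found at cell contacts, read 209.5 and 227 (1.08-fold higher). Col23a1 read 142.6 and 140.4 (just above wild type under loess), and 148.8 and 126.4, and 39.2 and 43.8 at its other probe sets, so its probe sets pointed both ways. Col25a1, the precursor of the amyloid-associated fragment CLAC, read 157.5 and 176.2 (1.12-fold higher), while its second probe set went from 8.6 to 29.3 (at least 1.93-fold higher). Col17a1, the hemidesmosome collagen of basal cells, read 14.3 and 6.9 and was not measured. It is the member closest to the floor from below, Col7a1, Col24a1, Col4a3 and Col9a2 being the dimmest ones above it.

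Probe sets of 1 gene give the only error that a pair of arrays allows. At the level of probe sets, 55 of the 82 were measured, of which 41 had a ratio above 0, beside 47.1% of all 21294 measured probe sets. The 2 that were 1.5-fold higher, beside 1.62% of all measured probe sets, were the second probe sets of Col27a1 and Col25a1, and 0 were 1.5-fold lower, beside 1.81%. In 15 of the 19 collagen genes with at least 2 measured probe sets, the 2 brightest had the same sign (78.9%, beside 58% over 5637 genes of any kind). The 4 others were Col3a1, Col4a5, Col4a6 and Col27a1. The difference between the log2 ratios of the 2 brightest probe sets had an SD, scaled to 1 probe set by the square root of 2, of 0.26 over the 19 genes and of 0.096 over the 12 with both above 106.3 signal units on average. The 0.26 was raised most by Col27a1 (log2 ratios -0.35 and 0.87) and Col25a1 (0.16 and 0.95). Of the 32 collagen log2 ratios 23 were within 0.26 of 0, and of the 21 above 106.3 on both arrays 11 were within 0.096. The SD holds no variation between embryos, pools or arrays.

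**Figure D4:**
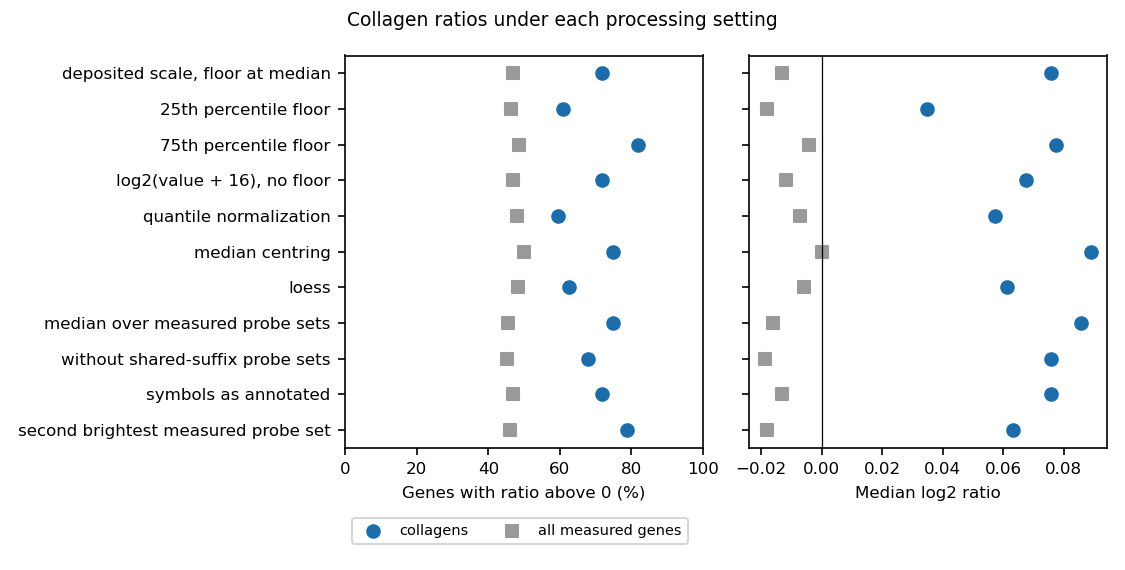
Share of genes with a ratio above 0 (left, percent) and median log2 ratio (right) for the measured collagens (circles) and for all measured genes (squares) under each of 11 settings, with no error bars because each is 1 pair of arrays. The collagen values lie to the right of those for all genes in every setting shown, from 59.4% under quantile normalization to 81.8% with the floor at the 75th percentile.

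Enzymes that modify collagen chains in the endoplasmic reticulum were measured for 14 of 15 genes, with a median log2 ratio of 0.06. Of the 14, 10 had ratios above 0, beside 46.8% of all measured genes. P4hb, Ppib and Crtap read above the 95th percentile on both arrays, where 66% of genes were above 0. The catalytic subunits of prolyl 4-hydroxylase, which stabilise the triple helix, all read higher. P4ha1 read 139.9 and 208.8 (1.49-fold higher), and 110.7 and 163.9 at its second probe set. P4ha2 read 62.5 and 84.5 (1.35-fold higher), and P4ha3 read 31.3 and 37.2 (1.19-fold higher). The shared partner P4hb read 2410.5 and 2497.5. The lysyl hydroxylase Plod2 read 248.9 and 295.2 at one probe set and 224 and 224.5 at the other. P3h1, a prolyl 3-hydroxylase, read 144.4 and 119.8 (1.21-fold lower), and 108.1 and 85 at its second probe set. P4ha1 and P3h1 thus had opposite directions, each at both of its probe sets.

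Chaperones and secretion factors were within 1.2-fold at the brightest probe set for all 7 measured genes of 9, with a median of -0.02. Of all measured genes 81.4% were within 1.2-fold. That median was above 0 under quantile normalization, at the 75th percentile floor and under 3 other choices of probe set. The collagen chaperone Serpinh1 (HSP47) read 2978.1 and 3038, but 1376.9 and 1718.1 (1.25-fold higher) at its second probe set. The collagen-binding protein Sparc read 2854.9 and 2958.5. Of 5 measured genes of propeptide removal (9 listed), 1 was above 0, and the median was -0.03. Pcolce2, an enhancer of procollagen C-proteinase, read 88.2 and 60.3 (1.46-fold lower), and Adamts3, a procollagen N-proteinase, read 33.3 and 44.3 (1.33-fold higher). Of 4 measured crosslinking genes (6 listed), 3 were below 0 and the median was -0.09. Lox, the lysyl oxidase that starts crosslinking, read 1698.9 and 1360.3 (1.25-fold lower), and 1430.2 and 1337 at its second probe set.

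Proteoglycans on the fibril surface had a median of -0.05 over 8 measured genes of 11, with 3 above 0. Ogn, the small proteoglycan osteoglycin, read 750.8 and 595.7 (1.26-fold lower), and 696.5 and 639.8 at its second probe set. Aspn, asporin, read 118.4 and 94.4, but 82.7 and 85 at its second probe set. Collagen receptors had a median of -0.03 and a mean of 0.08 over 8 measured genes of 12. The integrin chain Itga2 was 1.63-fold higher near the floor (15.8 and 25.7), the only receptor past 1.2-fold at its brightest probe set. Dimmer probe sets passed 1.2-fold as well. Those of Mrc2 (40.7 and 28.4), Ddr2 (34.2 and 26.2) and Itga1 (28.1 and 21.4) were lower. Those of Ddr1 went both ways (28.9 and 21.5, and 29 and 40.8). Regulators of collagen transcription, all 12 measured, had a median of 0.07 with 9 above 0, beside 46.8% of all measured genes. Smad3, which carries TGF-beta signals, read 245.7 and 300.2 (1.22-fold higher), and 70.4 and 78, and 38.6 and 37.3 at its other probe sets.

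Markers of the cells that make collagen differed in part. Smooth muscle markers were below 0 for 4 of 4 genes (median -0.42), with Cnn1 at 118.6 and 79, Myh11 at 80.1 and 57, and Tagln at 557 and 434.8, while Acta2 read 2749.2 and 2701.5. At the 75th percentile floor their median was -0.16. Of all measured genes 46.8% were above 0. Their summed signal was 3504.9 and 3272.3. Lung mesenchyme markers had a median of -0.08 over 5 genes, with Tbx5 at 116.8 and 93.1, and a summed signal of 4565 and 4453.4. Dimmer probe sets were lower for Tbx5 (97 and 58), Foxf1 (248.7 and 203.7) and Tbx4 (420.9 and 357.2). Those of Pdgfra (39.5 and 20.2, and 136.4 and 127.6) were lower as well, and that of Tcf21 (17.1 and 20) was higher. Lung epithelium (5 genes, median 0.05; Sftpc, and Epcam at 1287.4 and 1335.8), endothelium (5 genes, median -0.04; Pecam1 499.1 and 455.1, Cdh5 352.3 and 342.3) and mesothelium (3 of 4 measured, median 0.22; Upk3b 239.9 and 280.3, Lrrn4 29 and 33.9) had no marker past 1.2-fold at its brightest probe set. The second probe set of Epcam read 72.6 and 108 (1.49-fold higher). Heart muscle markers were lower (3 of 5 measured, median -0.69; Myl7 83.6 and 46.2, Myh7 24.9 and 15.4, Tnnt2 30.6 and 20.1). The 2 measured markers of nerve and Schwann cells, of 5 listed, were lower too at their brightest probe sets (median -0.44; Stmn2 46.1 and 32.5, Sox10 19.8 and 12.6). The other measured probe set of Stmn2 was higher (23.6 and 30.5), and Sox10 was below the floor on the TAZ-deficient array. The only measured one of 4 basal cell and oesophagus markers, Krt6a, was at least 1.13-fold lower. The part of these marker differences in the collagen ratios was not tested.

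The start regions of the collagen genes were compared with those of other genes. RefSeq windows of 300 bases, from 250 before to 50 after the start in GRCm38.p6, were matched for 33 of the 42 genes and held the TEAD core (GGAATG, either strand) in 5 of them, or 15.2%, beside 16.6% of 27025 genes with a window. Those 5 were Col3a1, Col4a6, Col6a2, Col18a1 and Col20a1. The CCAAT box (CCAAT) was found in 39.4% of the collagen genes and 41.1% of all, TATAAA in 15.2% and 15.7%, and the GC box (GGGCGG) in 63.6% and 38.2%, each on either strand. The wider set includes non-coding genes. The 4 genes with the TEAD letters that were measured, Col3a1, Col4a6, Col6a2 and Col18a1, were within 1.1-fold of wild type at their brightest probe sets. A match of letters is a description and shows no binding.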

How the data were processed

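Pooled RNA of E15.5 whole lung was measured on 2 Affymetrix arrays, 1 per group. The table deposited by the authors holds 1 linear intensity per probe set and array. The submitters' processing notes name GCOS and MAS5 without versions. On each array the deposited intensity values had a mean of 100.001 after removal of the lowest and highest 2%. Probe sets naming several genes (932) or not listed in the platform annotation (9160) were left out, and symbols were brought up to date with RefSeq GRCm38.p6 by Entrez identifier.

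Log2 ratios (TAZ-deficient to wild type) were computed in Python 3.11.15 with pandas 2.3.3. Every measured collagen was named, and of each of 16 other lists up to 4 genes past 1.2-fold or else the 2 with the highest signal. Second probe sets, the genes next to them in a pathway and unmeasured markers were added after their values were seen, as was the 95th percentile. The members and lists were chosen with earlier results of these data known. Alternatives were floors at the 25th and 75th percentile, a pseudocount of 16, quantile, median and loess scaling (span 0.4, statsmodels 0.14.6), and other choices of probe set or symbol. The calculation was tested on simulated data.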

Additional observations from a re-analysis of the deposited data

How the results depend on the processing

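The family median stayed above 0 under all 9 listed alternatives and the 1 added after seeing the data (the second brightest probe set), from 0.035 to 0.089. Counts over the 32 collagens moved mainly with the floor. With the floor at the 25th percentile (41 genes measured), 5 collagens were 1.5-fold lower, beside 7.14% of all genes measured there. Of these 41, 7 were 1.2-fold lower, beside 18.3%. Below 0 were 16 and above 0 were 25, beside 46.4% of all genes above 0. With the floor at the 75th percentile (22 genes measured), 0 were 1.2-fold higher and 1 was 1.2-fold lower, beside 3.19% and 4.19% of all genes. These 1.2-fold counts do not set the collagens apart. There 4 collagens were below 0 and 18 above, beside 48.6% of all genes above 0. With log2(value + 16), 1 was 1.5-fold lower and 3 were 1.2-fold higher, the latter beside 5.82% of all genes. No share of all genes is given for the count of 1, which is therefore not read as a trait of the collagens. With the second brightest measured probe set, 19 genes had a value, of which 15 were above 0 and 4 below, beside 46.1% of all genes above 0. Of these 19, 2 were 1.5-fold higher (Col27a1 and Col25a1), beside 1.62% of all measured probe sets, the brightest ones included. Of the 19, 0 were 1.2-fold lower, beside 12.4% of all genes. With that probe set the list medians were 0.22 (chaperones and secretion), -0.25 (collagen receptors), 0.30 (lung epithelium), -0.48 (heart muscle) and 0.37 (nerve and Schwann cell). Other list medians that moved by more than the SD of 0.20 between probe sets were smooth muscle (-0.16 at the 75th percentile floor), heart muscle (-0.38 with log2(value + 16)), basal cell and oesophagus (0.39 at the 25th percentile floor and -0.52 with log2(value + 16)) and nerve and Schwann cell (-0.22 as the median over probe sets). Fewer genes are measured with a higher floor or a second probe set; otherwise the cause was not tested. Signs of 7 of the 32 collagens changed under at least 1 of 3 scalings. No paired analysis was possible because each group is 1 pool. Signal over background limits Col7a1, Col24a1, Col4a3 and Col9a2.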
